A study of Mus musculus with 4 samples.

Results

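The interferon-inducible p200 family is a cluster of related mouse genes on chromosome 1, and its members Ifi202b, Ifi203, Ifi204, Ifi205 and Ifi211 were followed across 4 Affymetrix arrays of primary embryonic fibroblasts. The members were taken from the platform annotation: every probe set whose symbol field holds 1 of these 5 gene symbols was used, which gave 7 of 22626 probe sets that are not controls. The family was picked because of its signals on these same arrays, above all the high Ifi202b signal in wild-type hypoxia, so the values below describe the 7 probe sets and none of them was tested. Fibroblasts had been grown from mid-gestation embryos, and the embryonic day was the same for all 4 arrays. The tri-CH1 cells carried a deletion of the CH1 domain, a protein-binding module, in 2 alleles of the coactivator p300 and in 1 allele of the related CBP; the wild-type cells carried none. All cells were subconfluent and were kept for 6 h, with carbon dioxide held at 5% and the temperature at 37 °C, in medium equilibrated beforehand to the oxygen level used. There were 4 groups with 1 array each: tri-CH1 at 0.1% oxygen (hypoxia), tri-CH1 at 21% oxygen (normoxia), wild type at 0.1% oxygen and wild type at 21% oxygen. The labels give neither the mouse strain nor the number of embryos, and no culture was repeated, so a difference between genotypes cannot be told apart from one between embryos, strain backgrounds or arrays, nor one between oxygen levels from one between cultures or arrays.

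Proteins of this family share the HIN domain, which binds DNA, and most members also carry a pyrin domain through which they join other proteins. Several act as sensors of foreign or misplaced DNA in the nucleus or cytosol, and the family is known for its induction by interferons, most strongly in macrophages and other blood cells. Ifi202b encodes p202, which lacks the pyrin domain and inhibits the DNA sensor Aim2, and its level is known to differ between inbred mouse strains. Ifi204 encodes p204, a DNA sensor that signals through Sting1, and Ifi205 is known in macrophages as a regulator of the inflammasome adaptor Pycard. Ifi211 is listed in the gene reference under the synonym Ifi205b as well.

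The start regions of Ifi211, Ifi205 and Ifi202b are shown because probe sets that name these members were high on the same array, while the regions differ in the interferon motif they hold. Windows of 300 bases, from 250 before to 50 after the gene start, came from RefSeq (GRCm38.p6, the C57BL/6J reference, minus strand, read 5′ to 3′). They are chr1:173912997-173913296 for Ifi211, chr1:174031706-174032005 for Ifi205 and chr1:173982795-173983094 for Ifi202b. Capitals mark matches to the core of the interferon-stimulated response element, GAAANNGAAA, or of the interferon-gamma activated site, TTCNNNGAA, searched on both strands. No window of a member gene held both.
Ifi211: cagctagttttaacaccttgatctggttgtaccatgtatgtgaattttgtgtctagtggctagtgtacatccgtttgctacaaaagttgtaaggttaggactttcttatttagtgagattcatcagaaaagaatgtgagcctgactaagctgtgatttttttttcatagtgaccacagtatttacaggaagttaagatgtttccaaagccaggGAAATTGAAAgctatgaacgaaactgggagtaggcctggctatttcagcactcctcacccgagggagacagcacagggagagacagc
Ifi205: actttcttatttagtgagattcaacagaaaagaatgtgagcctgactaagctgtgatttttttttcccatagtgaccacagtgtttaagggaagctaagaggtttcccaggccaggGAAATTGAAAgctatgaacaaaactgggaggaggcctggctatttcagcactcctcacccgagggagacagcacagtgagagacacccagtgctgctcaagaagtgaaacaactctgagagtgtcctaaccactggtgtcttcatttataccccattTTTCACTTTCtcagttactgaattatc
Ifi202b: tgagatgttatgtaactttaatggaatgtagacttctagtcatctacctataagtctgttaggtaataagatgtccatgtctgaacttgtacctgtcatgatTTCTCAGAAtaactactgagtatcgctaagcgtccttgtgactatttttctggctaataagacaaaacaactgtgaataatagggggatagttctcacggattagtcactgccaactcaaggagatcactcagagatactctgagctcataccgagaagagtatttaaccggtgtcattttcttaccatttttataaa

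Ifi211 and Ifi205 held the same response element core, GAAATTGAAA, which began 37 bases before the start of Ifi211 and 134 bases before that of Ifi205. Over the 201 columns of their best local alignment, the windows of Ifi211 and Ifi205 were 93.5% identical. Ifi205 held a further match on the other strand, TTTCACTTTC, after its start. Of the 2 windows of Ifi203, 1 held the core as GAAATCGAAA, 35 bases before the start. Mndal, a relative that shares the probe set 1452348_s_at with Ifi211, Ifi205 and Ifi204, had 2 windows that both held the core, as GAAATCGAAA 36 bases and as TTTCTCTTTC 54 bases before the start. No window of Ifi204 was used here. The Ifi202b window held no such core and instead held TTCTCAGAA, a match to the activated-site core, which began 148 bases before the start. Of all 32851 promoter windows of this length, 3.44% held the response element core and 8.30% the activated-site core. The hypoxia response core ACGTG, present in 19.6% of all windows on either strand, was in none of the 5 windows of Ifi211, Ifi205, Ifi203 and Ifi202b, which says only that these letters are absent from these windows. These matches are a description of the reference sequence and do not show that any factor bound there.

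The sequence likeness matters for reading the arrays, since probes for 1 family member can bind the RNA of another. Only 2 of the 7 probe sets were annotated with 1 symbol, 1421551_s_at for Ifi202b and 1419603_at for Ifi204. The other 5 named several genes: 1452349_x_at named Ifi211 and Ifi205, 1452348_s_at named Mndal, Ifi211, Ifi205 and Ifi204, and 3 probe sets named Ifi203 together with its pseudogene and further loci. The suffixes s and x mark probe sets whose probes are shared by several transcripts or may cross-hybridise. Values are therefore given per probe set, no level is set against that of another probe set, and a value of a probe set with several symbols cannot be assigned to 1 gene.

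Across all 4 arrays, between 26.7% and 27.9% of probe sets had a signal of 500 or more, and the noise that the labels report came to between 8.83 and 19.2 signal units after the authors' scaling. The scale factors were 8.70 and 10.3 for tri-CH1 in hypoxia and normoxia, and 6.73 and 3.46 for wild type in hypoxia and normoxia, so the dimmest signals are least certain on the tri-CH1 arrays. Per the labels, 3 of the arrays share a lot and the array of wild type in normoxia does not. That array enters every hypoxia change in wild type, the comparison of the genotypes in normoxia and every difference of hypoxia changes, where lot and group cannot be told apart; the hypoxia change in tri-CH1 and the comparison of the genotypes in hypoxia use arrays of 1 lot. Signals below 200 were set to 200 before a change was computed. The words rose, fell, higher and lower are used for changes of 2-fold or more with a signal of 500 or more on the brighter array, and "at least" stands before a fold whose dimmer side had been set to 200. The only internal spread comes from 1059 genes with 2 bright probe sets each, whose changes had an SD on the log2 scale of 0.31 for the hypoxia change in tri-CH1, 0.26 in wild type, 0.33 for the genotype change in hypoxia and 0.34 in normoxia; it does not cover variation between cultures.

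Of the 7 probe sets, 3 reached a signal of 500 on any array and 4 stayed under 200 on every array. All 3 of the brighter ones had their highest signal in wild-type hypoxia, the array on which 20.6% of the 7481 probe sets that bright had theirs. Since the family was picked on these signals, nothing is read from that count.

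**Figure D1:**
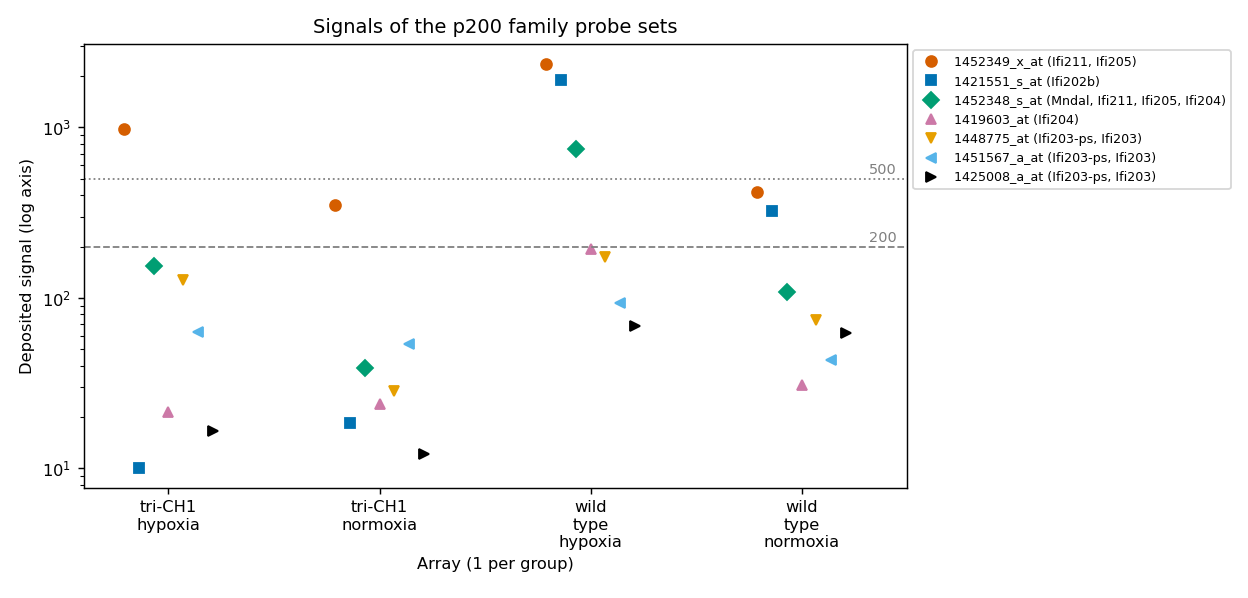
Deposited signal (log axis) of the 7 p200 family probe sets on each of the 4 arrays, 1 array per group; the dashed line marks the floor of 200 and the dotted line the minimum of 500, locus numbers are left out of the key, and points are spread sideways for legibility. In tri-CH1 hypoxia 1 probe set lies above 500, against 3 in wild-type hypoxia, and signals of different probe sets are not comparable.

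Ifi202b, the inhibitory member, had the clearest separation between the genotypes. Its probe set had signals of 10.1 in hypoxia and 18.4 in normoxia in tri-CH1 cells, against 1884.9 in hypoxia and 324.2 in normoxia in wild-type cells. Both tri-CH1 signals were about as small as the scaled noise of those arrays, 19.2 and 16.3, while both wild-type signals were above the floor. In wild type, the Ifi202b signal was 5.81-fold higher in hypoxia, or 2.54 on the log2 scale, which was rank 34 of the 6683 probe sets counted in that comparison. In hypoxia, the tri-CH1 signal was at least 9.42-fold lower than the wild-type one, a log2 change of -3.24 and the second lowest of 6803 probe sets. In normoxia neither array reached 500, so no call was made; after the floor the log2 change was -0.70, and with the signals as deposited it was -4.14. No hypoxia change can be given for tri-CH1, where both signals lay under 200.

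Ifi211 and Ifi205 share 1452349_x_at, the only probe set of the family that lay above 200 on all 4 arrays. Its signals were 980.8 in hypoxia and 351.3 in normoxia in tri-CH1 cells, and 2349.9 in hypoxia and 417.9 in normoxia in wild-type cells. Both hypoxia signals exceeded both normoxia signals, and the 2 normoxia signals lay close together. It was 2.79-fold higher in hypoxia in tri-CH1, a log2 change of 1.48, and 5.62-fold higher in wild type, a log2 change of 2.49. These were rank 102 of 6916 and rank 35 of 6683 probe sets. Subtracting the wild-type change from the tri-CH1 change left -1.01 on the log2 scale, just past the limit of 1, and the SD of this difference between probe sets of a gene was 0.39. In hypoxia the tri-CH1 signal was 2.40-fold lower than wild type. In normoxia the log2 change between the genotypes was -0.25. The SD between probe sets of a gene was 0.34 there, which does not cover variation between cultures. Median scaling of the arrays changed that difference of hypoxia changes to -0.87, with 0.175 for the median of all genes, and quantile normalization to -0.89, both inside the limit.

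The mixed probe set 1452348_s_at, annotated to Mndal, Ifi211, Ifi205 and Ifi204, was bright on 1 array only. Its signals were 153.3 in hypoxia and 38.9 in normoxia in tri-CH1 cells, and 750.1 in hypoxia and 108.1 in normoxia in wild-type cells. The wild-type hypoxia signal stood apart from the other 3, all of which were under 200. It was at least 3.75-fold higher in hypoxia in wild type, and in hypoxia it was at least 3.75-fold lower in tri-CH1 than in wild type. The difference of the hypoxia changes was -1.91 after the floor and -0.82 with the signals as deposited, so its size depends on the floor. As deposited, the log2 changes were 1.98 in tri-CH1 and 2.79 in wild type. Both tri-CH1 signals lay under the floor, where signals have no order here, so the 1.98 is not read as a rise. With a floor of 400 the wild-type rise was 0.91 on the log2 scale and no longer reached 2-fold.

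Ifi204, the DNA sensor p204, stayed under 200 on its own probe set 1419603_at. Its signals were 21.4 in hypoxia and 23.8 in normoxia in tri-CH1 cells, and 193.6 in hypoxia and 31.0 in normoxia in wild-type cells. The wild-type hypoxia signal stood just under the floor and the other 3 far under it, so no change was called. Without a call here, the rise of the mixed probe set that also names Ifi204 cannot be placed on Ifi204.

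Ifi203, a pyrin and HIN domain protein of the same cluster, was named by 3 probe sets that all stayed dim. Their signals ran from 16.5 to 126.7 in tri-CH1 hypoxia, from 12.1 to 53.5 in tri-CH1 normoxia, from 68.7 to 174.2 in wild-type hypoxia and from 43.0 to 74.6 in wild-type normoxia. Signals under the floor have no order here, and Ifi203 RNA was not detectable above the floor with these probe sets.

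Counted over the probe sets, 1 of 7 rose with hypoxia in tri-CH1, where 3.21% of all counted probe sets rose and 1.20% fell. In wild type 3 of 7 rose, against 3.10% of all counted probe sets that rose and 1.30% that fell. The shares in this paragraph cover only probe sets bright enough to be counted. Of the 7, 4 stayed under 200 on every array and could not be called, so the bases differ. In hypoxia 3 of 7 were lower in tri-CH1 than in wild type, against 3.82% of all, and none was higher, against 3.59%. In normoxia none of the 7 reached 500 on either array, while 4.02% of all counted probe sets were lower and 3.17% higher. The same 3 had a difference of hypoxia changes of -1 or lower, against 1.54% of all probe sets, and none had one of 1 or higher, against 1.80%. These 3 probe sets share target genes and passed the minimum through the array on which they were high, so they are not 3 independent observations. Because the comparisons share arrays, the wild-type rise and the lower tri-CH1 signal rest on the same wild-type hypoxia array.

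**Figure D2:**
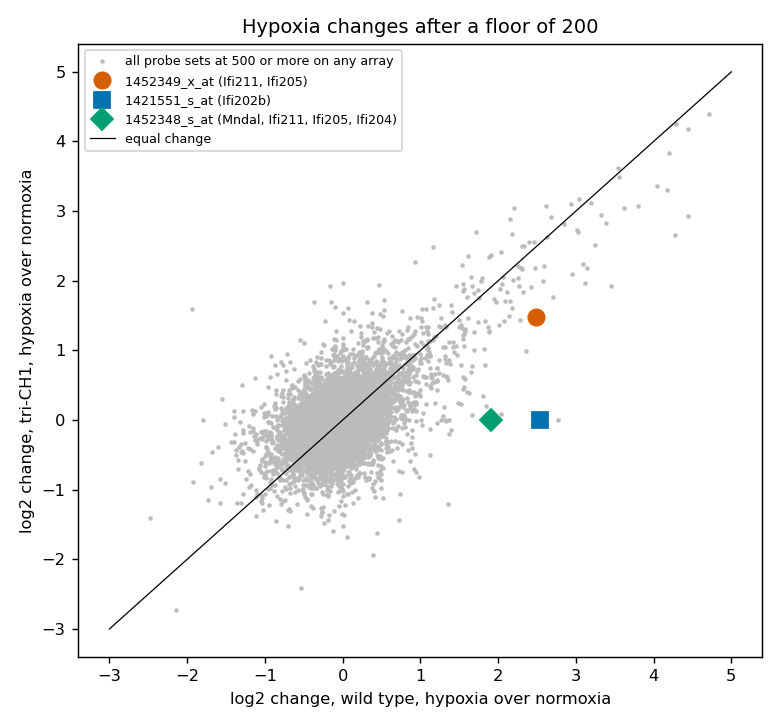
Log2 change with hypoxia in tri-CH1 (vertical) against wild type (horizontal) for the 7481 probe sets with a signal of 500 or more on any array, after the floor of 200; large symbols are the 3 p200 probe sets that bright, and the line marks equal change. The Ifi211 and Ifi205 probe set lies at 1.48 and 2.49, and the other 2 lie at 0 in tri-CH1 because both tri-CH1 signals were under the floor.

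The combination seen for Ifi202b was counted among risen genes. The family was picked on the same signals, so nothing is read from these counts or from the p200 probe sets in them. Of the 126 genes that rose with hypoxia in wild type, 4 were under 200 on both tri-CH1 arrays: Ifi202b, the placental growth factor gene Pgf, Rusc2 and Tmcc3. This set was drawn up after their values were seen. At the level of probe sets, 30 of 6331, or 0.474%, rose in wild-type hypoxia and were lower in tri-CH1 than in wild type in hypoxia, and the 3 p200 probe sets were among them. Of these 30, 6 also rose with hypoxia in tri-CH1, as the Ifi211 and Ifi205 probe set did.

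Genes with the most similar pattern were found by the distance between log2 signals over the 4 arrays, after each gene was centred on its own mean. For Ifi202b the nearest of 4644 genes was Pgf, at a distance of 0.60. Its deposited signals were 39.3 and 7.20 in tri-CH1 hypoxia and normoxia, and 1367.6 and 21.1 in wild-type hypoxia and normoxia. Of these, 3 were under 200 and entered the distance as 200, as did both tri-CH1 signals of Ifi202b. The closeness therefore depends on the floor: in wild-type normoxia the deposited signals were 21.1 for Pgf and 324.2 for Ifi202b. The next were the small heat shock protein gene Cryab at 0.94, the lipase inhibitor gene Angptl4 at 1.08, the tissue factor gene F3 at 1.24 and Fez1 at 1.27. For 1452348_s_at the nearest were Fez1 at 0.41, Tmcc3 at 0.46, Angptl4 at 0.49, the sterol sensor gene Insig2 at 0.53 and Cryab at 0.59. For the Ifi211 and Ifi205 probe set they were the transporter gene Slc41a2 at 0.34, the growth factor gene Vegfa at 0.36, the nuclear receptor gene Rora at 0.37, Rgcc at 0.40 and the phosphatase gene Pgp at 0.42. Its closest match with known induction by hypoxia, Vegfa, had signals of 1803.8 and 699.4 in tri-CH1 hypoxia and normoxia, and 3569.2 and 884.2 in wild-type hypoxia and normoxia. The distances cover 4 arrays only and say nothing of shared function.

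**Figure D3:**
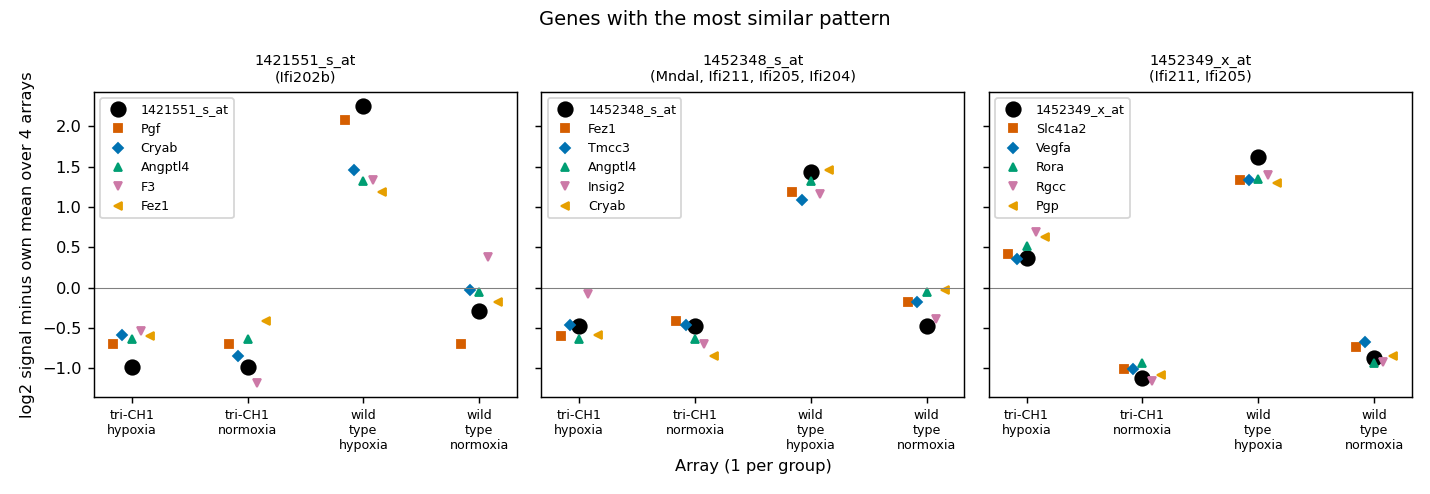
Log2 signal after the floor of 200, minus each gene's own mean over the 4 arrays, for the 3 brighter p200 probe sets (large black points, 1 panel each) and the 5 genes nearest to each. Ifi202b lies further from its neighbours, at distances of 0.60 to 1.27, than the Ifi211 and Ifi205 probe set, at 0.34 to 0.42.

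Most other measured genes that interferons induce stayed within 2-fold. Of 65 interferon-stimulated genes listed, 56 had a probe set with 1 symbol and 8 reached 500 on any array. With hypoxia, 8 were bright enough to be counted in tri-CH1 and 7 in wild type. Between the genotypes, 6 were counted in hypoxia and 8 in normoxia. Only counted genes could be called, and the shares for all genes here and below cover counted genes alone. With hypoxia, 1 of the 8 rose and none fell in tri-CH1, with a median log2 change of -0.11 against -0.033 for all genes, of which 3.19% rose and 0.987% fell. In wild type 1 rose and none fell, with a median of 0.023 against -0.053 for all genes, of which 3.05% rose and 1.19% fell. Between the genotypes none of the 8 was called at either oxygen level, with medians of 0.36 in hypoxia and 0.30 in normoxia, against 0.051 and 0.030 for all genes. Of all counted genes, 3.76% were higher and 3.31% lower in tri-CH1 in hypoxia, and 3.16% and 3.48% in normoxia.

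The gene that rose was H2-K1, a class I histocompatibility antigen that presents peptides. Its brightest probe set had signals of 5185.2 and 2061.5 in tri-CH1 hypoxia and normoxia, and 2905.3 and 1152.7 in wild-type hypoxia and normoxia, a log2 change with hypoxia of 1.33 in both genotypes, and one of 0.84 between the genotypes at both oxygen levels, short of 2-fold. Of its 3 other probe sets, 1451931_x_at did not rise in either genotype, and the values of the rest are not given here. It had 1240.1 and 1387.5 in tri-CH1 hypoxia and normoxia and 741.2 and 637.2 in wild-type hypoxia and normoxia. H2-K1 probes also resemble other class I genes, and with the mean over probe sets no gene of the list rose in either genotype. B2m, the light chain of class I molecules, changed by -0.16 in tri-CH1 and 0.12 in wild type on the log2 scale with hypoxia. The antiviral gene Ifitm3 changed by -0.35 and -0.66, the transcription factor gene Irf1 by -0.84 and -0.26, and the lysosomal reductase gene Ifi30 by -0.02 and 0.46. H2-D1 changed by 0.30 in tri-CH1 and 0.19 in wild type, Trim25 by -0.07 and -0.62, and Samhd1 by -0.27 and -0.07. The further bright members Irgm1 and Parp9 stayed under 500 on every array, with signals of 296.9 and 401.3 in tri-CH1 hypoxia and 317.8 and 396.0 in wild-type hypoxia.

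Receptors and kinases of interferon signalling were measured more often. Of 17 genes for interferon production and signalling, all on the array, 8 reached 500 and none was called in any of the 4 comparisons. In each comparison 7 of the 8 were bright enough to be counted. The receptor subunit gene Ifnar1 had signals of 499.3 and 769.7 in tri-CH1 hypoxia and normoxia, and 595.8 and 558.9 in wild-type hypoxia and normoxia. Its partner Ifnar2 changed with hypoxia by -0.17 in tri-CH1 and -0.42 in wild type on the log2 scale, Ifngr1 by 0.31 and 0.08, and Ifngr2 by 0.11 and 0.04. The receptor-bound kinase genes Jak1, Jak2 and Tyk2 changed by 0.40, -0.04 and 0.23 in tri-CH1 and by 0.67, -0.17 and -0.01 in wild type. Irf3, which activates interferon genes after DNA sensing, changed by -0.54 in tri-CH1 and -0.29 in wild type. Ifnb1, the interferon made by fibroblasts, was looked at after its values were seen; it had signals of 300.4 and 149 in tri-CH1 hypoxia and normoxia, and 211.6 and 136.6 in wild-type hypoxia and normoxia, all under 500.

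**Figure D4:**
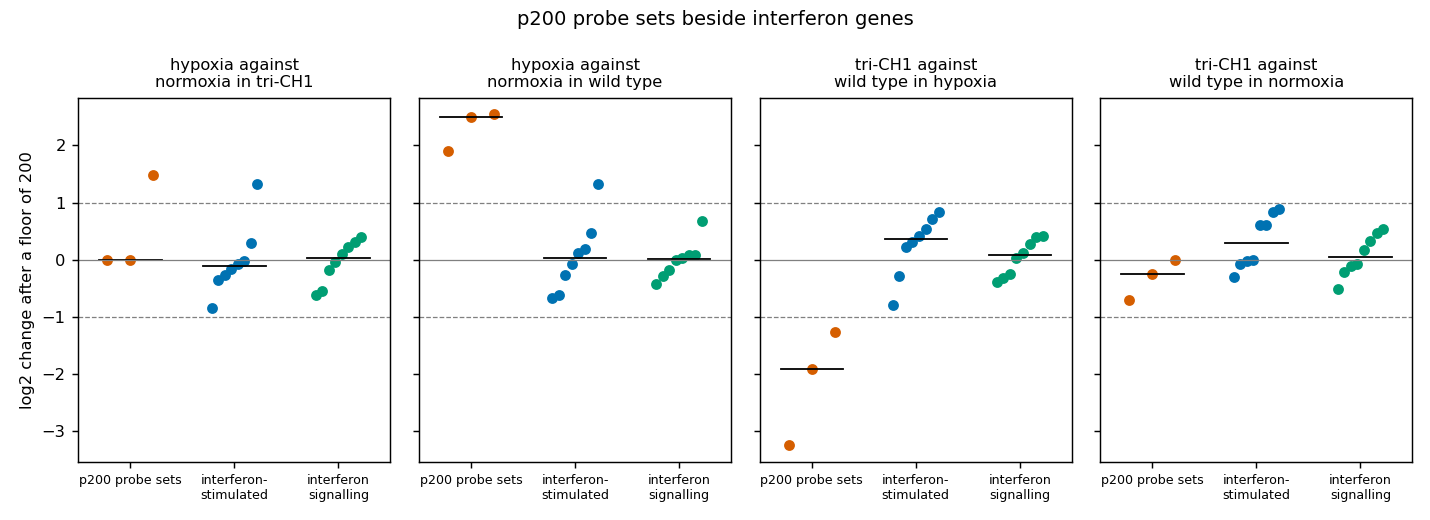
Log2 change after the floor of 200 in each comparison (panels) for the 3 brighter p200 probe sets, 8 measured interferon-stimulated genes and 8 measured genes of interferon signalling; bars are medians and dashed lines mark 2-fold. For hypoxia in wild type the p200 probe sets lie at 1.91 to 2.54, the interferon-stimulated genes at -0.66 to 1.33 and the interferon signalling genes at -0.42 to 0.67.

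The other p200 genes on the array were all dim. Of 12 relatives listed, 3 had a probe set with 1 symbol and none reached 500. The DNA sensor gene Aim2 lay between 4.70 and 20.3 on the 4 arrays. Mndal, which neighbours Ifi211, had signals of 201.7 and 84.9 in tri-CH1 hypoxia and normoxia, and 158.2 and 75.1 in wild-type hypoxia and normoxia, on its brighter probe set. All 4 were near or under the floor, so the rise of the mixed probe set cannot be placed on Mndal either. Ifi209 had 139.1 and 180.5 in tri-CH1 hypoxia and normoxia, and 118 and 76.9 in wild-type hypoxia and normoxia. Among 7 genes of cytosolic DNA sensing and the inflammasome, Sting1, the adaptor downstream of p204, was the only one at 500; it changed by 0.09 in tri-CH1 and -0.22 in wild type with hypoxia, and by 0.32 and 0.02 between the genotypes in hypoxia and normoxia. Genes whose proteins p200 members are known to bind were listed too: of 17, 7 reached 500, and none rose or fell with hypoxia in tri-CH1. In wild type 1 fell, Id1, with 743.8 in hypoxia and 1612.6 in normoxia, against 1.19% of all genes that fell. In hypoxia 1 was higher in tri-CH1, again Id1, at 1786.4, against 3.76% of all genes. In normoxia 1 was lower in tri-CH1, Myc, at 695.1, against 1464.6 in wild type, where 3.48% of all genes were lower. Myc was also the only one of the 7 called in the difference of hypoxia changes, at 1.04 on the log2 scale, with signals of 1022.2 in tri-CH1 hypoxia and 1050.5 in wild-type hypoxia; of all genes, 1.77% had a difference of 1 or higher and 1.46% one of -1 or lower.

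The genes beside the cluster on chromosome 1 mostly stayed within 2-fold between the genotypes. The 5 nearest genes on each side with a signal of 500 on any array, by the order of genes in the reference, were Dcaf8, Pea15a, Igsf8, Pigm and Tagln2 on one side and Fh1, Zbtb18, Adss, Desi2 and Cox20 on the other. With hypoxia none of the 10 was called in either genotype. Of all counted genes, 3.19% rose and 0.987% fell in tri-CH1, and 3.05% rose and 1.19% fell in wild type. In hypoxia 1 of 10 was called between the genotypes, Dcaf8, with 723.7 in tri-CH1 and 343.4 in wild type. Of all counted genes 3.76% were higher and 3.31% lower there. In normoxia none of the 10 was called, against 3.16% higher and 3.48% lower. Igsf8 was too dim to be counted with hypoxia in wild type. Zbtb18 was too dim with hypoxia in tri-CH1 and between the genotypes in normoxia. With 10 genes, counts of 0 or 1 cannot be set apart from these shares. After Dcaf8, Zbtb18 came next in hypoxia, with 270.6 in tri-CH1 and 530.5 in wild type, a log2 change of -0.97. The range over the 10 genes in hypoxia was -0.97 to 1.08, and in normoxia -0.44 to 0.87. Genes nearer to the members, among them p200 relatives and olfactory receptor genes, had no probe set with 1 symbol at that signal.

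**Figure D5:**
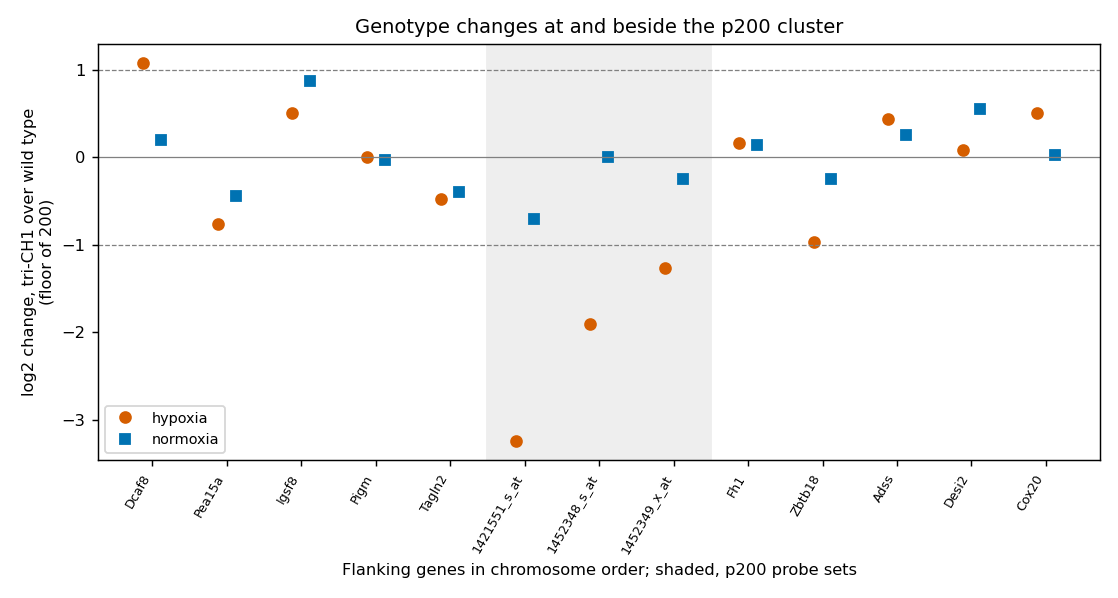
Log2 change of tri-CH1 over wild type in hypoxia (circles) and normoxia (squares), after the floor of 200, for the 10 flanking genes in chromosome order and, shaded, the 3 brighter p200 probe sets; dashed lines mark 2-fold. In hypoxia the p200 probe sets, from left to right those of Ifi202b, of the 4 mixed genes and of Ifi211 with Ifi205, lie at -3.24, -1.91 and -1.26, and the flanking genes lie between -0.97 and 1.08.

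Markers of the cell types the cultures could hold were set beside these values, since p200 genes are strong in blood cells. Of 14 fibroblast markers, 11 or 12 reached 500 on each array, with summed signals of 176000 and 180000 in tri-CH1 hypoxia and normoxia, and 156000 and 164000 in wild-type hypoxia and normoxia. Of 13 fibroblast markers at 500 on any array, 3 were higher and 1 lower in tri-CH1 in hypoxia, against 3.76% and 3.31% of all genes. In normoxia 1 was higher and 1 lower, against 3.16% and 3.48% of all genes. Thy1, a surface marker, was lower in tri-CH1, with 3274.1 and 3837 in hypoxia and normoxia against 12388.6 and 13147.8 in wild type, and the matrix gene Lum was higher, with 2683.9 and 1561.5 against 419.2 and 354.9. Of 21 macrophage and blood cell markers on the array, 2 reached 500 on each tri-CH1 array and 3 on each wild-type array, and 12 to 14 were under 200. Their summed signal was 3900 and 4630 in tri-CH1 hypoxia and normoxia, and 4510 and 4880 in wild-type hypoxia and normoxia. The blood cell antigen gene Ptprc stayed between 40.9 and 111.3, the myeloid factor gene Spi1 between 81.7 and 145.1 and the integrin gene Itgam between 13.5 and 71.2, all under the floor. Other markers, among them C1qb and Adgre1, passed 200 on some arrays but never 500, so they were not called. On the probe set used, C1qb had 181.2 and 206.5 in tri-CH1 hypoxia and normoxia, and 283.7 and 493.4 in wild-type hypoxia and normoxia. Adgre1 went the other way, with 207.3 and 364.1 in tri-CH1, and 188.4 and 176.3 in wild type, in the same order. Csf1r and the lysozyme gene Lyz2 were above 500 on every array. The third marker at 500 on any array was a further lysozyme gene, Lyz1, with 310.6 and 301.3 in tri-CH1 hypoxia and normoxia, against 575.2 and 840.7 in wild-type hypoxia and normoxia. In normoxia Lyz1 was lower in tri-CH1 by 2.79-fold, where 3.48% of all genes were lower. This was the only call among the 3 in the 4 comparisons. In hypoxia all 3 lay below 0 for tri-CH1 against wild type, the direction of the 3 brighter p200 probe sets, but none was called. The log2 changes were -0.03 for Csf1r, -0.48 for Lyz2, which was the median, and -0.89 for Lyz1. In normoxia 2 of the 3 lay above 0. Endothelial markers had none of 8 at 500. Epithelial markers had 1, 1, 2 and 0 of 8 at 500 in tri-CH1 hypoxia, tri-CH1 normoxia, wild-type hypoxia and wild-type normoxia, with summed signals of 3570, 1650, 5230 and 1260 in that order. The keratin gene Krt19 had its highest signal in wild-type hypoxia, as the brighter p200 probe sets did: it had 2675.5 and 423.2 in tri-CH1 hypoxia and normoxia, and 3880.8 and 144.7 in wild-type hypoxia and normoxia. It was 6.32-fold higher in hypoxia in tri-CH1 and at least 19.4-fold higher in wild type, a difference of hypoxia changes of -1.62 on the log2 scale. Of the 3 epithelial markers at 500 on any array, 2 had a difference of -1 or lower, against 1.46% of all genes, with a median of -1.06. The second was Krt8, at -1.06, which fell with hypoxia in tri-CH1, with 191.9 in hypoxia and 501.8 in normoxia. In wild type Krt8 had 332.0 in hypoxia and 398.3 in normoxia, both under 500. All 3 epithelial markers lay below 0 for tri-CH1 against wild type in hypoxia, and none was called there. Epcam and Cdh1, which define epithelial cells, were between 2.30 and 36.7, under the floor on every array. The part of these differences in the p200 signals was not tested, and in bulk RNA fewer expressing cells and less RNA per cell cannot be told apart.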

How the data were processed

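Total RNA of each sample was hybridised to 1 Affymetrix array. Per the labels, the authors ran the Affymetrix statistical algorithm, which subtracts background and gives each probe set a signal intensity, and scaled each array to a target of 500; the deposited intensity values are linear. Software versions are not given in the sources used here. Of 22690 probe sets, 20380 had 1 symbol in the platform annotation, 691 several, 1555 none and 64 were controls; 20351 matched the gene reference by gene number, and 0 symbols were updated. The targeted genes' probe sets were not used here, since their place relative to the deletion is not given.

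Log2 changes were computed after a floor of 200, and 2-fold calls needed a signal of 500 on the brighter array, or on any of the 4 for the difference of hypoxia changes. Members were used per probe set; other genes took their probe set with the highest mean signal, giving 12393 genes, of which 4645 reached 500. With 1 array per group there was no test. The number of arrays limits the precision.

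The members, lists and limits were chosen with earlier results of these data known. Genes were named by rule: every member probe set, the measured genes of the signalling and DNA sensing lists (no relative was measured), called interferon-stimulated genes or the 10 brightest, flanking genes and the 5 most similar patterns. The relatives on the array, Ifnb1, called binding partners and the marker genes given fall outside this rule and were chosen after their values were seen. Alternatives were floors of 100, 400 and none, minimums of 250 and 1000, quantile normalization, cyclic loess, a common median and the mean over probe sets. Python 3.11.15, pandas 2.3.3, numpy 2.4.6, Biopython 1.88, matplotlib 3.10.9 and limma 3.58.1 in R 4.3.3 were used.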

Additional observations from a re-analysis of the deposited data

How the results depend on the processing

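Over the 9 alternatives, 210 recomputed counts and list medians stayed within 1.5 times or within the SD between probe sets and 5 did not; 20 single p200 changes moved by more than that SD, and none that was called turned its sign. With a minimum of 1000 the count of p200 probe sets that rose in tri-CH1 became 0, since the brighter array, at 980.8, no longer passed. With that minimum, and with a floor of 400, the counts of 3 in wild type, between the genotypes in hypoxia and in the difference of hypoxia changes became 2. The last of these was also 2 with no floor, quantile normalization and a common median. The genotype change of Ifi202b in hypoxia ran from -2.24 with a floor of 400 to -7.54 with none, so its size depends on the floor. The mean over probe sets left 0 interferon-stimulated genes risen in either genotype, and put their median genotype change in normoxia at -0.07; a common median put it at -0.23, where the median of all genes was -0.20. Because the probe sets of Ifi202b and Ifi204 are single and the rest name several genes, the mean over probe sets could not alter the members. No paired analysis was possible because each group had 1 array, and none could be left out. Signal over noise limits Ifi203, Ifi204 and the tri-CH1 side of Ifi202b.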
